A study of Mus musculus with 6 samples.

Results

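This report follows 32 genes of the Notch pathway in long-term haematopoietic stem cells (LT-HSC) of the mouse. The members were taken from a list of receptors, ligands, processing enzymes, nuclear factors, targets and inhibitors, and a row of the signal table was a member's when its name equalled the gene's symbol or an older symbol of it. Of the 32 members 31 had a row, among 28888 genes in all. Dtx3 was not analysed here, and Maml2 had a second row under an older name, which makes 32 rows. The table writes its gene names in capitals.

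The LT-HSC had been sorted from bone marrow of male C56 Bl/6 mice, as the labels spell the strain, at 2 months of age. In the SSA group, sex steroid ablation, by surgery per the series title, had taken place 2 days earlier. The sham group had the mock operation. Each group had 3 arrays, and the labels do not say whether the arrays came from separate animals or from pools, and the p-values therefore reflect array-to-array spread that may be technical. The study asked which transcripts of the stem cells differ early after sex steroid loss.

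Notch receptors are membrane proteins that neighbouring cells activate through ligands of the Jagged and Delta-like families. Fringe enzymes add sugars to the receptor and so change which ligand it answers to. After ligand binding, an ADAM protease and then gamma-secretase cut the receptor, and its intracellular part enters the nucleus, where it joins the DNA-binding protein Rbpj and a Mastermind-like coactivator on target genes such as those of the Hes and Hey repressors. In blood formation the pathway is best known for directing progenitors to the T lineage and for its role when the first stem cells arise in the embryo.

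Rbpj binds a short DNA motif, searched here as GTGGGAA on both strands (TTCCCAC on the other strand) in the 250 bases before each gene's start in the RefSeq promoter table of build GRCm38.p6. Of the members 26 had an entry there, with 33 start sites between them, and 3 of these start sites (9.09%) held the motif, against 5.42% of all 32851 entries. Among the 6 targets, Hes5, Nrarp and Dtx1 had an entry, and Hes5 held the motif at a pair of places, on opposite strands. The matches are shown because they are the letters this pathway reads on DNA. The capitals mark the motif, each sequence runs 5′ to 3′ along the gene's strand, and a match describes the letters only.
Hes5, chr4:154960687-154960713, plus strand: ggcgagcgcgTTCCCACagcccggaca
Hes5, chr4:154960830-154960856, plus strand: gccgccgagtGTGGGAAcggccgcggc
Lfng, chr5:140607222-140607248, plus strand: cgtatcccacGTGGGAAggagagatct
Psen2, chr1:180246023-180246049, minus strand: cacaggagacTTCCCACagatgtttat

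Biotin-labelled cRNA from total RNA was read on Illumina MouseWG-6 BeadChips, where many copies of a bead stand behind every row. The arrays had a median of 44 beads per row and median raw signals of 132.3 to 145.3. Between 35.8% and 37.7% of rows per array were detected, meaning a deposited detection score above 0.95. Pearson correlations between arrays, across genes, were 0.9546 to 0.9878, and sham 2 stood apart, with no correlation above 0.9774. The array numbers in the headers run through SSA first and sham after it, so array order and SSA cannot be told apart. In a bulk sample, fewer cells of a type and less RNA per cell cannot be told apart.

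The LT-HSC label was checked against marker genes. Of 12 LT-HSC markers, taken by the brightest row of each gene, 11 were detected on at least 3 arrays, and Procr on none. Another row of Slamf1 was detected on 1 array, and another row of Ctnnal1 on none. The defining T cell genes Cd3d, Cd3e, Cd3g, Cd4 and Cd8a and the B cell genes Ms4a1 and Pax5 were detected on no array. Lck of the T cell list and Cd79b, Vpreb1 and Igll1 of the B cell list were detected on all 6 arrays. Of the genes with a row, 5 of 6 neutrophil, 6 of 8 erythroid and 6 of 6 megakaryocyte markers were detected on at least 3 arrays. Of 10 endothelial markers 7 were detected on at least 3 arrays, whereas Cdh5, Kdr and Flt4 were detected on none.

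By the detection score, 15 of the 31 members were detected on at least 3 of the 6 arrays, 10 of them on all 6, another 6 on 1 or 2 arrays and 10 on none. Of all 28888 genes, 10821 were detected on at least 3 arrays and 8350 on all 6. The 10 members detected on every array were Notch1, Mfng, Rfng, Adam17, Psenen, Maml1, Maml2, Nrarp, Dtx2 and Dtx4. They hold at least 1 member of each step from receptor to target except the ligands. A second measure asked whether the raw signal exceeded the array's background mean by 3 background SDs on at least 3 arrays. It was met by 14 members and by 10411 of the 28888 genes. The 14 members included Notch4, Psen2 and Ncstn, which the score missed. Jag2, Maml3, Hes5 and Dtx4 passed by the score and not by the signal, so no ligand met the second measure.

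Some rows have a score that does not lie on the grid of equal steps that most rows share. There were 7546 such rows among 30774, and on each array all 409 to 464 rows that were bright but not detected (signal above the median of the detected rows) were of that kind. Notch4, Psen2 and Ncstn are such rows too, so their scores and their signals disagree.

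**Figure D1:**
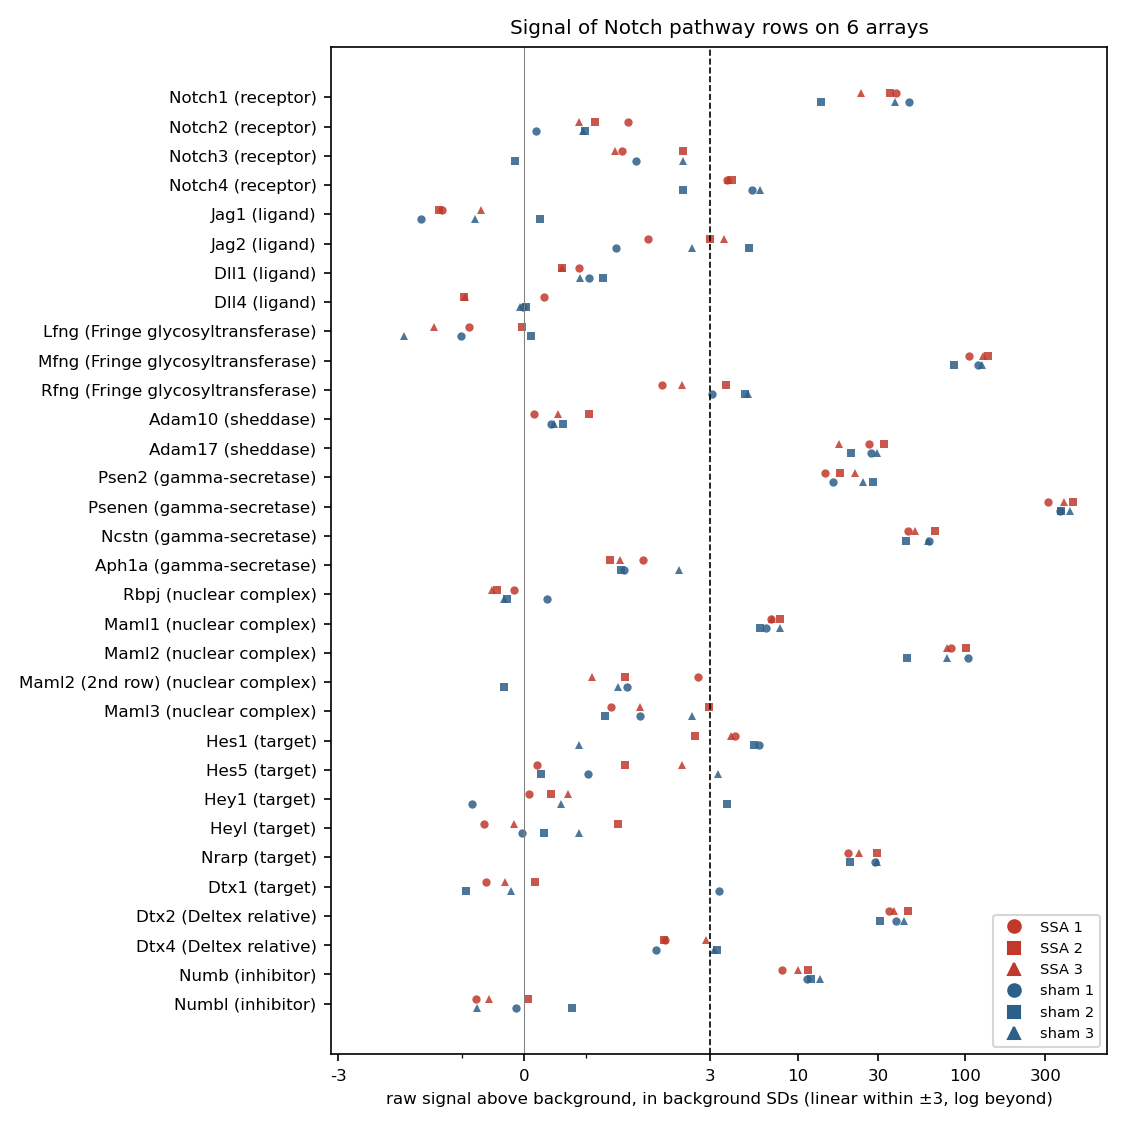
Raw signal of the 32 Notch pathway rows, in SDs of each array's background above its mean (x axis, linear to 3 and logarithmic beyond), with SSA arrays in red above sham arrays in blue in each line and a dashed line at 3 SDs. Notch1, Mfng, Adam17, Psen2, Psenen, Ncstn, Maml1, Maml2, Nrarp, Dtx2 and Numb lie beyond the line on all 6 arrays, whereas Rbpj, Jag1, Dll1, Dll4 and Lfng lie below it on all of them.

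No tested Notch pathway gene passed the test of SSA against sham. In limma over 10821 genes, 0 of the 15 tested members passed an adjusted p of 0.05 (0 higher, 0 lower), against 0.00924% of all genes, and 0 had an unadjusted p under 0.05, against 8.48% of all genes. The adjusted p values of the members lay between 0.633 and 0.992. With the background estimated by limma's own neqc, Mfng and Dtx2 had an unadjusted p under 0.05 (0.0331 for Mfng and 0.0042 for Dtx2), at a lowest adjusted p of 0.530 among members. Further settings with such members are named in the section on the processing. Among the 10411 genes passing the signal measure, 0 of 14 tested members passed the adjusted test, against 0.00961% of all genes, and 0 had an unadjusted p under 0.05, against 8.64%.

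Of the 15 members, 9 had a positive and 6 a negative log2 fold change, SSA minus sham, where 51.4% of all genes were positive. Their median was 0.037, beside 0.0084 over all genes tested. The values ran from -0.37 for Rfng to 0.35 for Maml2. In 2 members (13.3%), Mfng and Dtx2, every SSA array lay above every sham array, as in 8.47% of all genes, and in 0 members every SSA array lay below, against 6.09% of all genes. In either direction the share was 14.6% of all genes. With the signal measure, SSA lay above sham without overlap in 2 of 14 members (8.59% of all genes) and below in 0 (6.2%; 14.8% in either direction), and 8 of 14 were positive (51.6%). The arrays bound these differences only loosely, since the 95% interval of a member's log2 fold change reached 0.30 to 0.84 to each side.

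**Figure D2:**
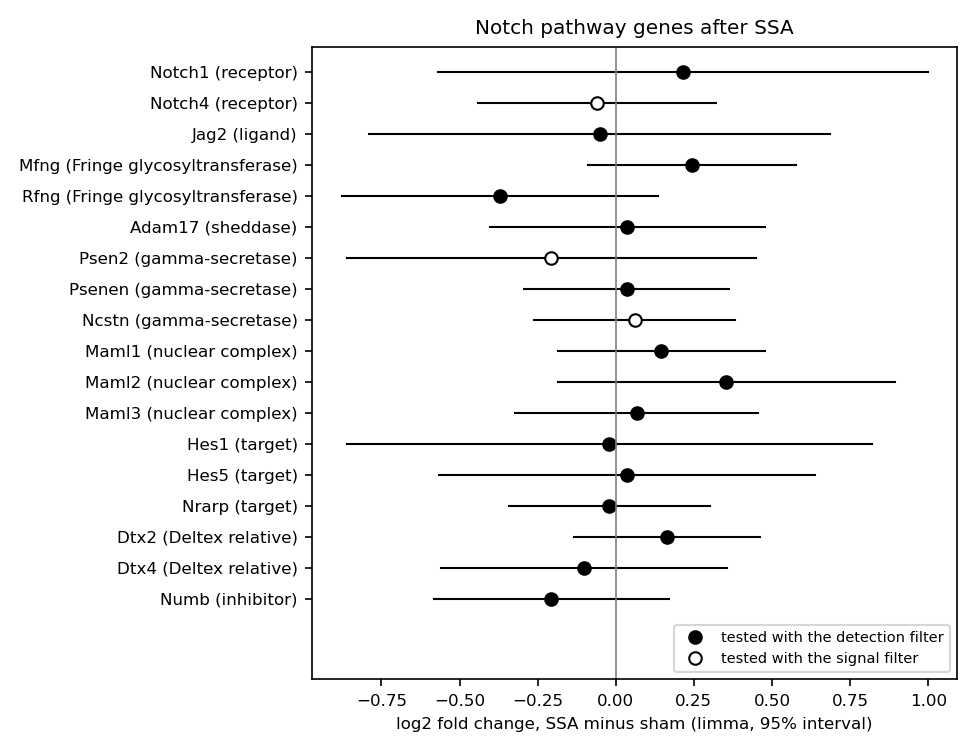
Log2 fold change, SSA minus sham, of the 18 tested Notch pathway genes (points) with the 95% interval from limma (bars), in order of their role. Filled points were tested among genes passing the detection score and open points among genes passing the signal measure, and every interval includes 0.

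Among the receptors, Notch1 (row NOTCH1), the receptor that drives T lineage choice, was detected on every array. Its normalised log2 signal was 8.53, 8.10 and 7.82 on the SSA arrays, against 8.51, 7.20 and 8.10 on the sham arrays. The groups overlapped, and sham 2 was the lowest of the 6. Notch1 thus had a log2 fold change of 0.21 ± 0.34 (SE), with a 95% interval of -0.57 to 1.00 and an adjusted p of 0.870 in limma. The raw signal of Notch1 was 229.9 on sham 2 with a bead standard error of 10.7, and 316.7 to 485.5 elsewhere with bead standard errors of 21.3 to 27.0. Leaving out sham 2 gave -0.15 for Notch1, and leaving out sham 1 gave 0.50.

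Notch4, a receptor best known from endothelium, was tested only with the signal measure. Its log2 signal was 5.61, 5.51 and 5.65 on the SSA arrays, against 5.73, 5.38 and 5.84 on the sham arrays. The sham arrays spanned the SSA arrays on both sides, at a log2 fold change of -0.06 ± 0.16 (SE). Notch2 was detected on 2 SSA arrays and no sham array, at raw signals of 146.8, 145.7 and 138.8 after SSA and 131.2, 133.8 and 146.1 in sham. Its groups overlapped, no array exceeded 1.7 background SDs, and no fold is given. Notch3 was detected on SSA 2 and sham 3 alone and stayed within 2.6 background SDs of the background mean on every array.

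Jag2 (JAG2) was the 1 ligand of 4 detected on at least 3 arrays. It encodes a Jagged ligand, which presents the signal rather than receiving it. Its log2 signal was 5.04, 5.27 and 5.58 on the SSA arrays, against 4.81, 6.08 and 5.16 on the sham arrays, so the sham arrays held both the lowest and the highest value. Jag2 had a log2 fold change of -0.05 ± 0.32 (SE), and of 0.33 without sham 2 and -0.32 without sham 1. Jag1, Dll1 and Dll4, the other ligands, were detected on no array and lay between -1.7 and 1.3 background SDs from the background mean.

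The Fringe enzymes held the members whose fold changes had the smallest p values. Mfng (MFNG) had a log2 signal of 9.93, 9.97 and 10.13 on the SSA arrays, against 9.86, 9.63 and 9.81 on the sham arrays. Every SSA array was above every sham array, with a gap between SSA 1 and sham 1 smaller than the spread within either group. Mean signals were 10.01 ± 0.11 after SSA and 9.77 ± 0.12 in sham (SD, n = 3). The difference of 0.24 had a 95% interval of -0.09 to 0.58, and its adjusted p in limma was 0.634. Leaving out any single array gave 0.18 to 0.29.

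Rfng (RFNG) lay the other way. Its log2 signal was 5.13, 5.44 and 5.25 on the SSA arrays, against 5.23, 6.03 and 5.68 on the sham arrays, and the groups overlapped because sham 1 lay among the SSA arrays. Its log2 fold change was -0.37 ± 0.22 (SE), at an adjusted p of 0.633 in limma, and it was -0.19 without sham 2 and -0.58 without sham 1 (adjusted p 0.215 in limma). The Rfng row lay only 2.2 to 5.0 background SDs above the background mean. Its log2 fold change was -0.11 with no background correction and -0.025 with the neqc background. Lfng, the Fringe enzyme best known from T cell development and from the somite clock, was detected on no array. Its promoter window holds the motif printed above.

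Of the sheddases, which make the first cut after ligand binding, Adam17 was detected on every array and Adam10 on none. Adam17 (ADAM17) had a log2 signal of 8.02, 7.98 and 7.41 on the SSA arrays, against 7.77, 7.73 and 7.80 on the sham arrays. SSA 3 was below all sham arrays and the other SSA arrays were above them, and the log2 fold change was 0.04 ± 0.19 (SE). Adam10 lay 0.2 to 1.0 background SDs above the background mean.

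Gamma-secretase, the protease of the second cut, is built from a presenilin, Ncstn, an Aph1 protein and Psenen. The row of Psenen, the smallest subunit, was detected on every array, with a log2 signal of 11.51, 11.65 and 11.66 after SSA and 11.46, 11.70 and 11.56 in sham. Its groups overlapped, and its log2 fold change of 0.04 had a 95% interval of -0.29 to 0.36. Ncstn, the substrate-binding subunit, stood at 8.77, 8.95 and 8.83 on the SSA arrays, against 8.91, 8.71 and 8.75 on the sham arrays, with a log2 fold change of 0.06 and a 95% interval of -0.26 to 0.38. Leaving out single arrays gave 0.012 (without SSA 2) to 0.12 (without sham 1) for Ncstn. For these subunits the arrays bound a difference more tightly than for Notch1.

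Psen2 (PSEN2), a catalytic presenilin, varied more. It stood at 7.21, 7.18 and 7.72 on the SSA arrays, against 7.08, 8.13 and 7.52 on the sham arrays, where sham 2 was the highest and sham 1 the lowest of the 6. Psen2 had a log2 fold change of -0.21 ± 0.28 (SE), and of 0.07 without sham 2. Aph1a was detected on no array and reached at most 2.5 background SDs, on sham 3.

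In the nuclear complex, all 3 Mastermind-like coactivators were detected on at least 3 arrays and Rbpj on none. Maml2 (MAML2) had a log2 signal of 9.59, 9.56 and 9.43 on the SSA arrays, against 9.66, 8.74 and 9.11 on the sham arrays. Sham 1 was above all SSA arrays and the remaining sham arrays were below them. Its log2 fold change, the highest of the members, was 0.35 ± 0.23 (SE) with an adjusted p of 0.664 in limma, and it was 0.14 without sham 2 and 0.60 without sham 1. The second Maml2 row was detected on SSA 1 alone.

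Maml1 had a log2 signal of 6.29, 6.21 and 6.27 after SSA and 5.94, 6.24 and 6.14 in sham. Its SSA arrays lay close together and overlapped with sham 2, at a log2 fold change of 0.15 ± 0.14 (SE), and of 0.065 without sham 1. Maml3 stood at 4.84, 5.26 and 5.01 on the SSA arrays, against 4.91, 4.86 and 5.15 on the sham arrays, near the floor of the scale, with overlapping groups. The Rbpj row lay between -0.5 and 0.4 background SDs from the background mean, so these arrays give no level for the DNA-binding subunit.

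Among the targets, 3 of 6 were tested, and their groups overlapped. Nrarp (NRARP), a target that in turn dampens Notch signalling, had a log2 signal of 7.63, 7.85 and 7.79 on the SSA arrays, against 7.85, 7.71 and 7.79 on the sham arrays. The groups covered nearly the same range. Mean signals were 7.76 ± 0.11 after SSA and 7.78 ± 0.07 in sham (SD, n = 3), and the log2 fold change of -0.02 had a 95% interval of -0.34 to 0.30, which leaves out a change of 1 log2 unit either way.

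Hes1 (HES1), a repressor often used as a readout of Notch activity, was detected on all arrays but sham 3. Its log2 signal was 5.72, 5.20 and 5.68 after SSA and 5.83, 6.15 and 4.68 in sham. The sham arrays held both the highest and the lowest value. Hes1 had a log2 fold change of -0.02 with a 95% interval of -0.86 to 0.82, and it was -0.45 without sham 3 and 0.29 without sham 2.

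Hes5, whose window holds the motif at both places printed above, was detected on 2 SSA arrays and 1 sham array. It stood at 4.52, 4.89 and 5.25 on the SSA arrays, against 4.70, 4.53 and 5.32 on the sham arrays, with a log2 fold change of 0.04 ± 0.26 (SE). Hey1 was detected on sham 2 alone, at a raw signal of 154.9, and Dtx1 on sham 1 alone, at 155.6. The other sham arrays of Hey1 and Dtx1 lay at background, overlapping with the SSA arrays. Heyl was detected on none.

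Deltex proteins are ubiquitin ligases that act on Notch receptors. Dtx2 (DTX2) had the tightest groups of the tested members, at 8.39, 8.45 and 8.43 on the SSA arrays, against 8.26, 8.24 and 8.29 on the sham arrays. Every SSA array was above every sham array. Mean signals were 8.43 ± 0.03 after SSA and 8.26 ± 0.02 in sham (SD, n = 3). Their difference of 0.16 had an SE of 0.13 in limma, which draws on the spread of all genes, a 95% interval of -0.13 to 0.46 and an adjusted p of 0.715. Leaving out any single array gave 0.15 to 0.18.

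Dtx4 was detected on every array close to the background. It stood at 5.14, 5.07 and 5.38 after SSA and 4.98, 5.64 and 5.27 in sham, with overlapping groups and a log2 fold change of -0.10 ± 0.20 (SE). Numb, which inhibits Notch by sending it to endosomes, was detected by its score on 1 SSA array and all sham arrays. That score lies off the common grid, and the signal of Numb was 8.0 to 13.5 background SDs above the background on the 6 arrays. Numb had a log2 signal of 6.47, 6.64 and 6.71 on the SSA arrays, against 6.62, 7.03 and 6.78 on the sham arrays. Sham 1 lay among the SSA arrays, and the log2 fold change was -0.21 ± 0.16 (SE) with an adjusted p of 0.715 in limma. Without sham 2 it was -0.094. Its relative Numbl was detected on no array.

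**Figure D3:**
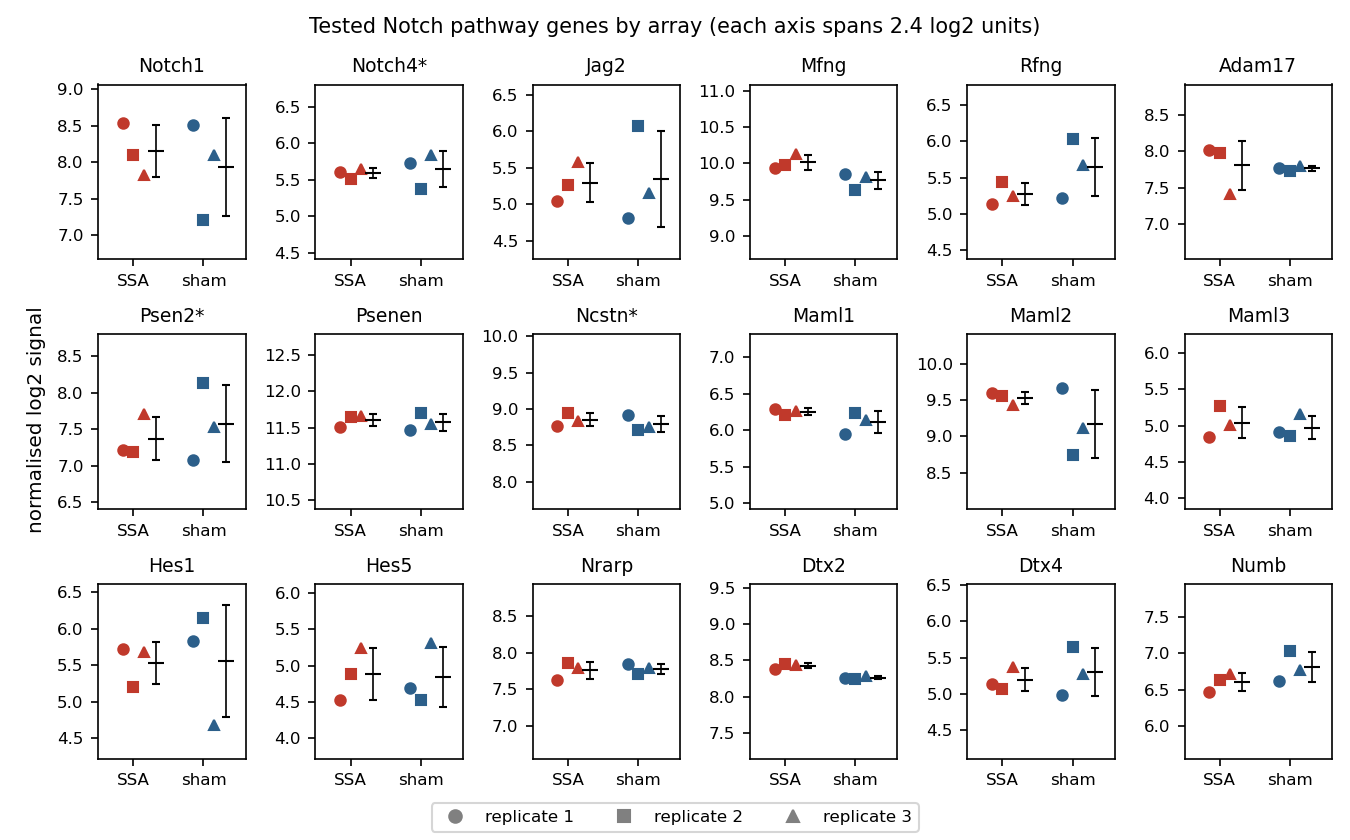
Normalised log2 signal (y axis, the same span in every panel) of the 18 tested Notch pathway genes on the SSA arrays (red, left) and the sham arrays (blue, right), with the mean and SD of 3 arrays in black and an asterisk on genes tested with the signal measure. Mfng and Dtx2 are the panels in which all red points lie above all blue points.

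Single arrays often held the extreme value of a member. SSA 1 was the highest or the lowest of the 6 arrays in 8 of the 15 members (53.3%), and in 32% of all genes tested. Sham 2 was so in 10 of the 15 members (66.7%), and in 53.3% of all genes. Sham 2 was the lowest for Notch1, Mfng, Maml2 and Dtx2 and the highest for Jag2, Rfng, Hes1, Dtx4, Numb and Psenen. Relative to the mean of all arrays, sham 2 deviated by -0.84 for Notch1, -0.61 for Maml2, 0.76 for Jag2 and 0.60 for Hes1 on the log2 scale. The largest single deviation among the tested members was -0.86, of Hes1 on sham 3.

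**Figure D4:**
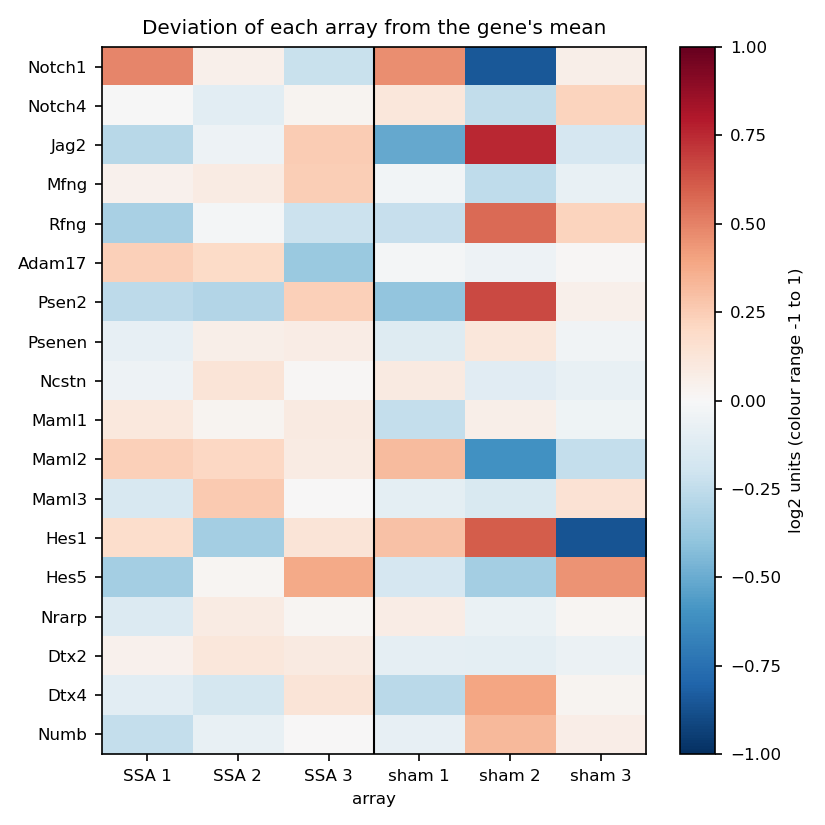
Deviation of each array (columns, SSA to the left of the line and sham to the right) from the gene's mean over 6 arrays, in log2 units, for the 18 tested Notch pathway genes (rows). Sham 2 holds strong colours in both directions, from -0.84 for Notch1 to 0.76 for Jag2, whereas Nrarp, Psenen and Dtx2 stay pale on all arrays.

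Summed levels of marker lists on the same arrays also differed. The summed normalised level of 8 cell cycle genes was 1560 to 1950 on the SSA arrays, against 2450 to 3520 on the sham arrays, and that of 5 eosinophil genes with a row was 349 to 1360 after SSA and 2720 to 3520 in sham. For 10 endothelial markers, some of which stem cells share, it was 5830 to 6150 after SSA and 4550 to 5730 in sham. That sum was mostly Esam, also on the LT-HSC list, with a mean log2 signal of 12.10 after SSA and 11.81 in sham. Emcn and Sox18 were also higher after SSA. Tie1 (7.95 after SSA, 8.24 in sham), Tek, Pecam1 and Plvap had lower means after SSA, with overlap. For 10 immediate-early genes the summed level was 3100 to 15800 after SSA, against 8450 to 48900 in sham, with overlap. The neutrophil list summed to 370 to 3960 after SSA and 1140 to 8740 in sham, the erythroid list to 2810 to 6850 after SSA and 4920 to 8360 in sham, and the megakaryocyte list to 2950 to 4800 after SSA and 3310 to 6550 in sham, all with overlap. The LT-HSC list itself summed to 13800 to 14900 after SSA and 9940 to 13800 in sham, where sham 2 was the lowest. Its groups overlapped, with SSA 2 at 13790 and sham 1 at 13850. Of these lists, Bub1 and Ccna2 of the cell cycle list, Il5ra of the eosinophil list and Nr4a1 of the immediate-early list were detected on no array. Junb was not detected by its score, which lies off the common grid, but its signal was 9.4 to 162.0 background SDs above the background on the 6 arrays. The part of these lists in the values of the Notch members was not tested. T cell markers summed to 284 to 405 after SSA and 334 to 377 in sham, and B cell markers to 516 to 809 after SSA and 494 to 586 in sham.

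Beyond the members, 56 further genes of the pathway were listed, of which 54 had a row and 37 were tested. None of the 37 passed limma over all genes (0 higher, 0 lower, lowest adjusted p 0.562), and 5 (13.5%) had an unadjusted p under 0.05, against 8.48% of all genes. Their median log2 fold change was 0.014, beside 0.0084 over all genes. In 12 of the 37 (32.4%) the groups did not overlap, against 14.6% of all genes, 7 of them with SSA above sham (8.47% of all genes) and 5 below (6.09%).

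Of the 5 with an unadjusted p under 0.05, Dlk1, a Delta-like protein without the receptor-activating domain, stood at 8.30, 8.26 and 8.47 on the SSA arrays, against 8.08, 6.97 and 7.51 on the sham arrays. All SSA arrays were above all sham arrays, and sham 2 was the lowest. Dlk1 had a log2 fold change of 0.83 ± 0.27 (SE), at an adjusted p of 0.562 in limma, and of 0.55 without sham 2. Bhlhe40, a transcriptional repressor related to the Hes proteins, averaged 8.13 ± 0.13 after SSA and 7.30 ± 0.60 in sham (SD, n = 3). Its groups did not overlap either, at a log2 fold change of 0.84 ± 0.28 (SE), and of 0.49 without sham 2.

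Aph1c, a gamma-secretase subunit related to Aph1a, had raw signals of 148.9 to 152.7 on the SSA arrays, against 127.3 to 147.3 on the sham arrays. It was detected on all SSA arrays and no sham array, so its level in sham has only an upper bound. It passed the filter only through the SSA arrays, and its place among the 5 and the 12 genes counted above therefore supports nothing. The acetyltransferase gene Crebbp, which coactivates the nuclear complex, had a log2 fold change of 0.43 ± 0.18 (SE), and of 0.28 without SSA 1. Crebbp had raw signals of 144.7 to 157.9 on the SSA arrays, against 129.7 to 142.6 on the sham arrays. It was detected on all SSA arrays and 1 sham array, so the SSA arrays alone met the filter. Its place among the 5 and the 12 genes therefore supports nothing either. Ncor1, a corepressor that acts with Rbpj where Notch is inactive, had -0.38 ± 0.15 (SE). For Crebbp, Ncor1, Dlk1 and Bhlhe40 the adjusted p in limma was 0.562 to 0.570.

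Further genes with groups that did not overlap included Mib2 (0.24), Tle4 (0.26) and Snw1 (0.37) with SSA above sham, and Mib1 (-0.38), Cul1 (-0.22) and Tle3 (-0.21) with SSA below sham, as log2 fold changes. Tle3 was detected on 1 SSA array and all sham arrays, at no more than 2.2 background SDs above the background. Its sham arrays alone met the filter, so its place among the 12 genes supports nothing. Leaving out 1 array gave 0.19 for Snw1 (without sham 2), 0.16 for Tle4 (without SSA 1) and -0.24 for Mib1 (without sham 3). Mib1 and Mib2 are ubiquitin ligases that let ligand-bearing cells send the signal, and they lay in opposite directions.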

How the data were processed

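The 6 arrays were grouped by their titles. The authors deposited raw signal as linear intensity, 1 value per row and array, from GenomeStudio 1.8.0 without normalization, per the file headers, along with the SD and number of beads. The detection score that the authors deposited behaved as 1 minus a detection p. The deposited series matrix, also intensity, held that signal after a subtraction of 1 constant on each array (126.6 to 138.1), within 0.1, with column medians of 5.7 to 7.2. How rows of several probes were combined is not given in the sources used here.

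Row names were matched to the RefSeq gene table of GRCm38.p6, used for names: 15991 rows matched a current symbol, 5826 an older one, and 8957 none or several. The background mean (126.3 to 137.6) and SD (7.59 to 8.99) of each array came from a regression of signal on the normal quantile of scores between 0.1 and 0.9, over rows with scores on the common grid of equal steps (within 0.01 of a step). Signals were then corrected by normexp, given an offset of 16, quantile-normalised and put on the log2 scale with limma 3.58.1 in R 4.3.3. The offset understates changes of dim genes. These log2 values were computed here from the deposited signal. Tested were the 10821 genes whose detection p was below 0.05 on 3 or more arrays, by the brightest row, with lmFit and eBayes, two-sided, with Benjamini-Hochberg adjustment over all of them. Genes with a raw signal over background by 3 SDs on at least 3 arrays (10411) served as an alternative set, from which Notch4, Psen2 and Ncstn were taken after their values were seen. The number of arrays limits the precision. The fit was tested on simulated data.

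The members and lists were chosen with earlier results of these data known. All members are named, with values by array for those detected on at least 3 arrays or with groups that do not overlap, and other pathway genes are named at an unadjusted p under 0.05 or without overlap. Some listed genes are counted but not reported here by name. Summed marker levels are normalised signals without the offset. Figures were drawn with matplotlib 3.10.9. Alternatives covered background, offset, normalisation, filter, several rows of a gene, variance model, array weights, a replicate block and leaving out each array.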

Additional observations from a re-analysis of the deposited data

How the results depend on the processing

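No alternative called any Notch member: 0 of the members tested passed limma in any of 18 other settings. The lowest adjusted p was 0.0625 (Maml2, with array weights). At most 4 of the 15 members of the detection filter had an unadjusted p under 0.05, namely Maml2, Rfng, Hes1 and Hes5 with array weights. Notch4, tested by signal, was a further one with array weights. Mfng and Dtx2 were under 0.05 in limma with neqc and with no filter (0.045 and 0.048 with no filter). Mfng was so with no background correction (0.043). Maml2 and Rfng were so without sham 1 (0.011 and 0.017). The median log2 fold change of the members lay between -0.020 (no filter) and 0.092 (detected on all 6 arrays), and between 0.0080 and 0.077 when 1 array was left out. The count of all genes called moved more. It was 1 (Ear6) as reported, with 918 genes at an unadjusted p under 0.05, and 0 with the neqc background, 0 with no background correction and 0 with no filter, at 852, 990 and 2057 genes. It was 0 to 4 without single arrays, being 0 without SSA 1, SSA 2, sham 2 or sham 3 and 4 without sham 1, with 466 to 1802 genes at an unadjusted p under 0.05. With array weights it was 1443, where the iterative fit stopped before it converged and gave sham 3 a weight of 6.61 and the others 0.318 to 1.70, so that sham 3 carried most of the sham group. Of 12 further pathway genes recomputed, chosen by their main result, 4 passed with array weights, Dlk1 (0.78), Bhlhe40 (0.60), Crebbp (0.56) and Mib1 (-0.58). The titles give replicate numbers and do not say whether same-numbered arrays were paired. Deviations of same-numbered arrays correlated at 0.40, -0.0086 and -0.19. These values cannot decide it, because differently numbered arrays were not compared. With a replicate block 4 genes and 0 members were called.

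Directions of members that changed sign were all of values that did not pass. With array weights Jag2 stood at 0.025, Maml3 at -0.092, Hes1 at 0.69 and Hes5 at -0.49. With a median shift per array Jag2 stood at 0.052 and Hes1 at 0.071, and with the series matrix values Hes1 stood at 0.031. In the other 194 of 201 comparisons of a member with an alternative setting the direction held. Leaving out single arrays turned the sign in 18 of 108 comparisons, with ranges of -0.15 to 0.50 for Notch1, -0.20 to 0.034 for Notch4, -0.32 to 0.33 for Jag2, -0.070 to 0.23 for Adam17, -0.46 to 0.071 for Psen2, -0.020 to 0.099 for Psenen, -0.044 to 0.17 for Maml3, -0.45 to 0.29 for Hes1, -0.15 to 0.26 for Hes5, -0.068 to 0.042 for Nrarp and -0.26 to 0.072 for Dtx4. The cause was not tested. Members that passed neither the score nor the signal measure were tested only in the setting without a filter, and were not measurable at these signals.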
